A study of Mus musculus with 5 samples.

Results

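The centromere-proximal ends of the mouse autosomes were examined in ChIP-seq lists of 2 histone marks. Members were all islands, that is, broad enriched regions called by the authors, whose midpoint lay between 3 and 8 Mb on chromosomes 1 to 19 of build mm9. Assembled sequence starts at about 3 Mb on each autosome, after a gap that stands for the centromere, so these 5 Mb are the assembled sequence nearest to it. The rule used position alone, and it chose 4261 of the 73415 islands in all lists. Of these, 1277 were H3K9me3 islands of untreated embryonic stem cells (ESCs) and 1787 were H3K9me3 islands of L-proline-treated cells. H3K36me3 gave 479 members in ESCs and 718 in treated cells. The cells were wild-type TBV2 mouse ESCs of the 129/SvP strain, grown without feeder cells and with leukemia inhibitory factor in a medium that lacked non-essential amino acids. They were kept for 5 days either without addition or with 500 µM L-proline, and the treated cells are called L-proline-induced cells (PiCs). There was 1 library for each mark in each condition. Differences between conditions therefore lack a replicate check, and none was tested.

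Mouse autosomes have their centromere at the very start of the chromosome, where long arrays of satellite repeats are packed into silent heterochromatin. H3K9me3, histone H3 trimethylated at lysine 9, is deposited there by the SUV39H enzymes and bound by HP1 proteins. In ESCs the enzyme SETDB1 also places it on endogenous retroviruses along the chromosome arms. H3K36me3, trimethylated at lysine 36, is laid down by SETD2, which travels with elongating RNA polymerase II, and it marks the bodies of transcribed genes. The satellite arrays themselves lie in the gap, so the members describe the flank of the centromere and not the centromere.

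The members were compared with the other autosomal sequence, from 8 Mb to the last base under any island of each autosome. This gave 95 Mb of proximal sequence and 2320 Mb of other sequence, and the ends made up 3.93% of the length. The whole number that the authors give for every island was taken to be its count of tags. Over a whole list it came to between 1511058 tags (H3K9me3 of ESCs) and 26055650 tags (H3K36me3 of ESCs), and library depth beyond the islands is unknown. All intervals are at the 95% level and reflect counting error alone. Those of medians are exact order-statistic intervals and the others exact binomial, except where another kind is named.

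H3K9me3 islands were denser in the proximal ends than in the rest of the autosomes, in both conditions. ESCs had 13.4 islands per Mb in the ends and 7.08 per Mb elsewhere, a ratio of 1.90 (interval 1.79 to 2.01). PiCs had 18.8 per Mb in the ends and 9.76 elsewhere, a ratio of 1.93 (1.84 to 2.02). The ends thus held 7.22% of the autosomal H3K9me3 islands of ESCs and 7.32% of those of PiCs. H3K36me3 showed no such excess in ESCs, with 5.04 islands per Mb in the ends and 4.95 elsewhere, a ratio of 1.02 (0.927 to 1.12). In PiCs the H3K36me3 values were 7.56 and 6.74 per Mb, a ratio of 1.12 (1.04 to 1.21). That last excess rested on chromosome 19, without which the ratio was 0.988. It was also absent from the median of the autosomes' own ratios, 0.95, and from ends drawn out to 13 Mb, 0.967.

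The excess of H3K9me3 was shared by most autosomes but was very uneven. The number of ESC H3K9me3 islands per end ran from 1 on chromosome 14 to 128 on chromosome 9, with a median of 65. In PiCs it ran from 1 on chromosome 14 to 201 on chromosome 9, with a median of 87. The end was denser than the rest of the same chromosome on 15 of the 19 autosomes in each condition. In ESCs the exceptions were chromosomes 2, 14, 16 and 17, and in PiCs chromosomes 14, 16, 17 and 19. The steepest ESC excess was on chromosome 9, at 3.93 times the density of the rest of the chromosome, followed by chromosome 18 at 3.40, chromosome 3 at 3.06 and chromosome 4 at 3.05. In PiCs chromosome 9 reached 4.39 times, chromosome 4 3.50 times and chromosome 3 3.25 times. Chromosomes 1, 3, 4, 9, 13 and 18, the 6 with the most PiC members, held 51.7% of the ESC and 55.2% of the PiC H3K9me3 members. The same 6 ends held 12.9% of the ESC and 18.1% of the PiC H3K36me3 members.

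**Figure D1:**
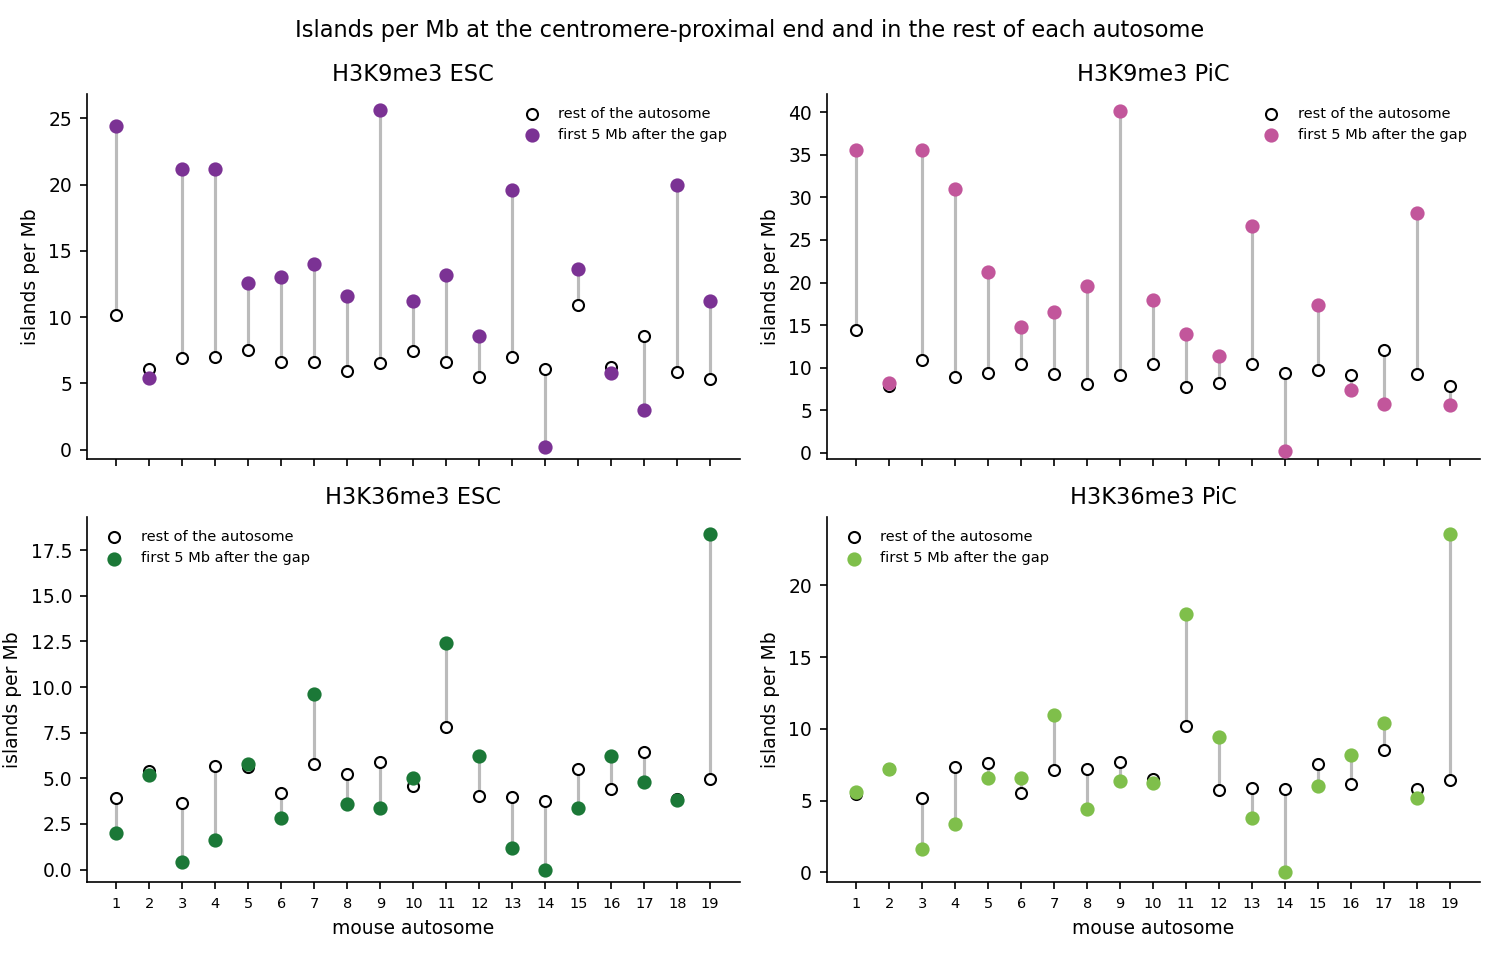
Islands per Mb (y axis) in the first 5 Mb after the assembly gap (filled points) and in the rest of the same autosome (open points), for each autosome (x axis) in each of the 4 lists. For H3K9me3 the filled point lies above the open one on 15 of 19 autosomes in both conditions, and for H3K36me3 on 7 in ESCs and 9 in PiCs.

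The end of chromosome 14 held almost no islands of either mark. No island of any list began there before 6055201, the start of its only PiC H3K9me3 member, and its only ESC H3K9me3 member began at 7732601. No H3K36me3 island had its midpoint in this end, and the nearest began at 8652001 in PiCs and 8699801 in ESCs. Whether tags can be placed on this sequence was not tested, and the input library was not analysed. The end of chromosome 17 was also poor in H3K9me3, which numbered 15 in ESCs and 29 in PiCs, against 24 and 52 H3K36me3 islands.

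Ranked among all 5 Mb windows laid along the autosomes from 3 Mb, the proximal windows stood high for H3K9me3. There were 473 windows, of which 19 were proximal. The median number of ESC H3K9me3 islands was 65 in proximal windows and 31.5 in the others, and 15 of 19 proximal windows exceeded that second median. In PiCs the medians were 87 and 45, and 14 of 19 exceeded. Of the 19 proximal windows, 11 in each condition lay above the 90th percentile of the others, a level passed by 9.69% of the other windows in ESCs and 9.91% in PiCs. The proximal window held the most H3K9me3 islands of its chromosome on 7 autosomes in ESCs and 9 in PiCs. For H3K36me3 it did so on 1 autosome in each condition, chromosome 19, and 2 proximal windows lay above the 90th percentile of the others.

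The density of H3K9me3 islands did not drop to the autosomal level at 8 Mb. In ESCs the mean over autosomes was 13.4 ± 7.13 islands per Mb (SD, n = 19 autosomes) in the first 5 Mb and 10.0 ± 3.50 in the next 5 Mb. It was 9.29 ± 3.62 and 9.55 ± 3.69 in the following windows and 7.07 ± 3.30 at 20 to 25 Mb from the gap. In PiCs the same series was 18.8 ± 11.4, 15.0 ± 5.60, 15.1 ± 5.34, 15.5 ± 6.50 and 10.6 ± 4.53. The elevation thus extended over about 20 Mb, and the first window differed from its neighbours by less than the spread between autosomes. H3K36me3 followed no such course, with ESC means of 5.04, 3.85, 3.17, 3.80 and 4.41 islands per Mb. Within the ends, ESC H3K9me3 islands numbered 307, 279, 237, 214 and 240 in steps of 1 Mb away from the gap, and PiC islands 405, 372, 345, 317 and 348. H3K36me3 was thinnest in the last step, with 57 ESC islands against 111 in the first.

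**Figure D2:**
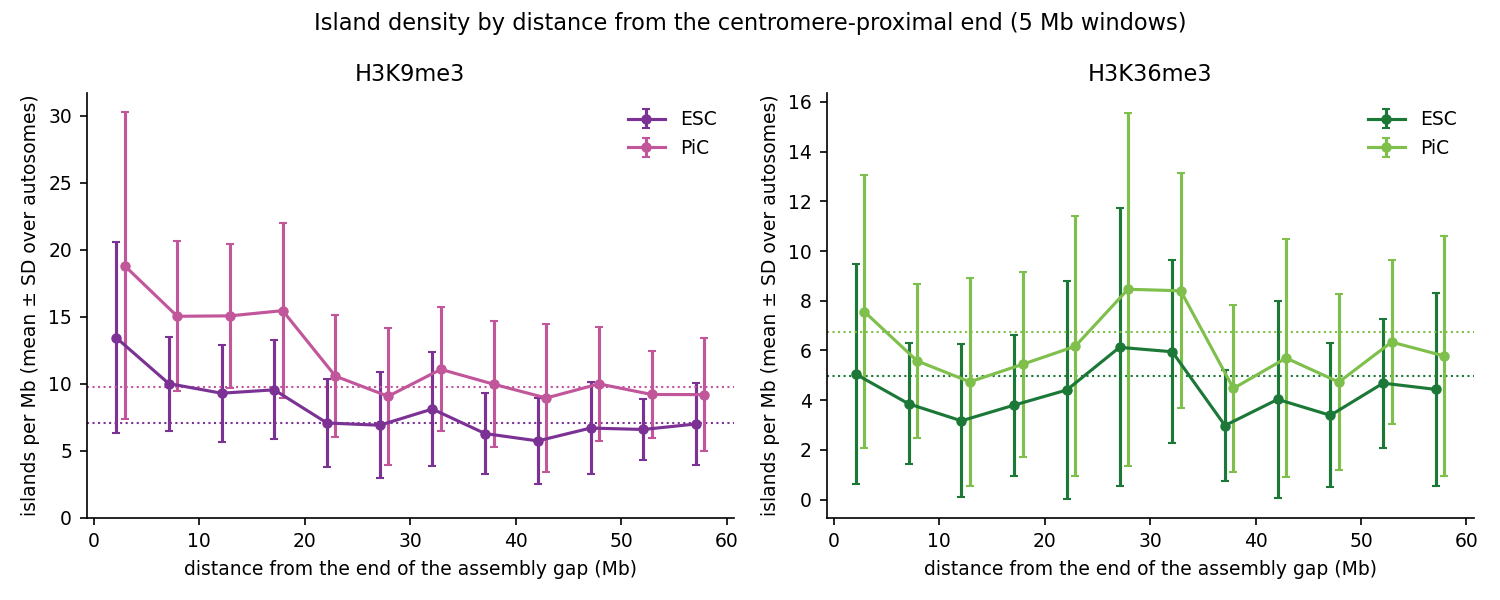
Mean islands per Mb (y axis) in successive 5 Mb windows by distance from the end of the assembly gap (x axis, Mb), with bars of 1 SD over autosomes (19, and 18 in the last window). Dotted lines give the density of all autosomal sequence past 8 Mb in each list. H3K9me3 starts at 13.4 in ESCs and 18.8 in PiCs and reaches 7.07 and 10.6 at 20 to 25 Mb, while H3K36me3 moves around its dotted lines.

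The ends were also compared with windows of like H3K36me3 content, as the 473 windows were split into 4 classes of near-equal size by ESC H3K36me3 coverage. In the poorest class (up to 3.83% covered) the 4 proximal windows, on chromosomes 3, 4, 13 and 14, had a mean of 77.8 ESC H3K9me3 islands against 33.7 in the 115 others. In the next class the 6 proximal windows had a mean of 90.2 against 31.1, and all 6 lay above the median of the others. In the class after it, 7 proximal windows had 43.3 against 32.0. In the richest class (13.9% and more covered) the ends of chromosomes 11 and 19 had a mean of 61 against 43.6. The PiC ratios of these means were 2.05, 2.66, 1.37 and 1.14 from the poorest to the richest class, and the ESC ratios 2.31, 2.90, 1.35 and 1.40. The means of the ends were thus above those of the others in every class of H3K36me3 coverage, with larger ratios in the 2 poorer classes. From the poorest to the richest class, 3, 6, 5 and 2 proximal windows exceeded the median of the others in ESCs, and 3, 6, 4 and 1 in PiCs. In PiCs the excess of the richest class rested on chromosome 11, with 70 islands. Chromosome 19 had 28, below the median of 38.5 in the others.

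Covered length gave a larger excess than island number in PiCs, and in ESCs the intervals of both ratios overlapped. H3K9me3 islands covered 4.36% of the ends and 2.11% of the rest in ESCs, a ratio of 2.06 (normal interval on the log scale 1.91 to 2.23). In PiCs they covered 8.51% and 3.59%, a ratio of 2.37 (2.23 to 2.52). In length this was 4.15 Mb for ESCs and 8.09 Mb for PiCs. The end of chromosome 3 was the most covered in PiCs, at 21.0%, and had 8.32% in ESCs, followed by chromosome 9 with 20.01% and 8.34% and chromosome 1 with 19% and 9.14%. H3K36me3 covered 8.79% of the ends and 9.45% of the rest in ESCs, and 9.27% and 9.34% in PiCs. Its ratios, 0.93 (0.822 to 1.05) and 0.993 (0.891 to 1.11), did not differ from 1 beyond their intervals.

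The median PiC H3K9me3 island was wider in the ends than elsewhere, whereas the median ESC island was not. The median width of PiC members was 3.6 kb (3.4 to 3.8) against 3 kb (3 to 3.2) in the rest. In ESCs it was 2.6 kb both in the ends (2.6 to 2.8) and in the rest. Of the PiC members 104 measured 10 kb or more, or 5.82%, where 3% of all autosomal PiC H3K9me3 islands did. Of the ESC members 23 did, or 1.80%, where 1.07% of all autosomal ESC islands did. H3K36me3 members had median widths of 12.2 kb (11.4 to 14) in ESCs and 8.2 kb (7.4 to 8.8) in PiCs, against 12.8 and 8.8 kb in the rest. At least 10 kb was reached by 292 ESC members (61.0%, against 62.2% of all autosomal islands) and 302 PiC members (42.1%, against 44.8%).

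Clusters of H3K9me3 islands were concentrated in the ends. Islands at most 10 kb apart were strung into runs, and a run of 50 kb or more was called a cluster. Of all autosomal PiC runs 0.664% were that long, and 26 of these 115 clusters (22.6%) lay in the ends. That was 7.13 times the density of the rest (interval 4.42 to 11.2). The density of single PiC islands in the ends was itself 1.93 times that of the rest, and its part in the cluster ratio was not tested. ESCs had 4 clusters in the ends and 12 in the rest, together 0.118% of their runs. The longest PiC cluster opened the assembled part of chromosome 3, from 3000201 to 3250200. Its 22 islands covered 81.3% of these 250 kb in PiCs, while ESC islands covered 23.0% of them, and no H3K36me3 island touched it. The next were on chromosome 13 at 3288601 to 3401200 (15 islands, 54.0% covered in PiCs and 31.6% in ESCs), chromosome 7 at 5730201 to 5834200 (65.6% and 40.6%) and chromosome 9 at 6750801 to 6846600 (78.3% and 25.7%). These clusters were chosen on the PiC list, and they were named after their values were seen. The density of H3K36me3 clusters in the ends did not differ from that elsewhere beyond its interval, with 64 in ESCs (ratio 0.994, 0.762 to 1.28) and 63 in PiCs (0.958, 0.733 to 1.23). Among all autosomal H3K36me3 runs 23.3% were clusters in ESCs and 20.7% in PiCs.

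The typical H3K9me3 island of the ends was hardly richer in tags than one elsewhere. Tag density of the ends and the rest was compared inside each list. Where densities of ESCs and PiCs stand side by side they are unscaled, and no gain or loss is read from them. The median ESC member had 26.7 tags per kb (interval 25.9 to 27.3), against 25.6 (25.4 to 25.7) in the rest, a ratio of 1.04. In PiCs the median was 33.8 (33.3 to 34.4) against 33.3 (33.1 to 33.5), a ratio of 1.02, and these intervals overlapped. For H3K36me3 the medians were 73.3 (68.6 to 79.6) against 71.7 in ESCs, and 49.2 (47.6 to 51.7) against 49.2 in PiCs. Summed tags over summed length gave a different picture for H3K9me3, with 32.9 tags per kb in the ends and 26.6 in the rest of ESCs, and 41.7 and 35.5 in PiCs. Most of this excess lay in the first 200 kb after the gap. There 74 ESC islands (5.79% of the members) held 22.0% of the members' tags, and without them the ends had 27.9 tags per kb. In PiCs 102 islands held 19.5% of the tags, and without them the ends had 36.2 tags per kb.

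A few islands beside the gap held most of those tags. On chromosome 11 lay the member with the most tags, 12657 in ESCs (168 per kb), between 3025601 and 3101000. In PiCs it ran from 3027201 to 3100200 with 24497 tags, or 336 per kb. The next was on chromosome 9 at 3015001 to 3033000, with the same edges in both lists and a density of 281 (ESCs) and 561 (PiCs) tags per kb. A neighbour on chromosome 9 at 2999801 to 3009200, the member nearest to the gap, also had identical edges, with 263 and 526 tags per kb. None of these 3 islands carried an H3K36me3 island in either condition. The 3 held 14.8% of the tags of all ESC H3K9me3 members and 11.7% of those of PiCs. The input library was not analysed here, so what these sites gather without an antibody is not known.

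The other widest H3K9me3 members were not all of this kind. On chromosome 17 an ESC island of 22.8 kb at 6934401 to 6957200 had 83.2 tags per kb, and 82.5% of its length lay under ESC and 78.1% under PiC islands of H3K36me3. The PiC island within it measured 15.6 kb and had 42.9 tags per kb. On chromosome 16 an ESC island of 21.8 kb at 3642201 to 3664000 had 21.6 tags per kb and was covered by a PiC island over 86.2% of its length. The widest PiC members after the chromosome 11 island were on chromosome 3 at 4867601 to 4895000 (27.4 kb, 40.0 tags per kb) and on chromosome 7 at 5895001 to 5920000 (25 kb, 33.7 tags per kb). The first met 2 ESC islands that covered 74.5% of it, and the second met 1 that covered 9.60%. Neither carried H3K36me3.

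Between the conditions, the ratio of H3K9me3 island numbers in the ends did not differ from that elsewhere beyond its interval. The ratio of covered lengths, for which no interval was computed, was larger in the ends. PiCs had 1.40 times as many members as ESCs (interval 1.30 to 1.505), against 1.38 times (1.35 to 1.41) in the rest. The ratio of these 2 ratios was 1.02 (normal interval 0.942 to 1.09). Covered length was 1.95 times as large in PiCs in the ends and 1.70 times in the rest. The summed tags were 2.47 times as large in the ends and 2.27 times in the rest, so the longer PiC list also held more tags, and the part of tag yield in these differences was not tested. When the PiC list was shortened to the size of the ESC list by keeping its islands with the most tags, the ends had 1.08 times as many islands in PiCs (1.004 to 1.17) and the rest 0.983 times (0.962 to 1.01).

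The end of chromosome 19 departed from the others in its ratio of H3K9me3 islands. On 17 of the 19 autosomes the PiC list had the larger number of H3K9me3 members, and the median ratio was 1.41. The highest ratio was 1.93 (interval 1.003 to 3.88) on chromosome 17, where 15 ESC islands stood against 29 of PiCs. Chromosome 19, with 56 ESC and 28 PiC islands, had the only ratio below 1, namely 0.5 (0.306 to 0.801). With lists of equal size it was 0.339 (0.190 to 0.580). In covered length the chromosome 19 end went from 4.02% in ESCs to 1.86% in PiCs, whereas the rest of chromosome 19 had 1.48% and 2.84%. The difference lay between 4 and 7 Mb, where the successive 1 Mb steps held 11, 14 and 10 islands in ESCs and 4, 5 and 1 in PiCs. On chromosome 11 the ratio was 1.06 (0.747 to 1.51), the next lowest apart from chromosome 14, where each condition had 1 island. The interval of chromosome 11 included the median ratio of 1.41. Chromosomes 19 and 11 had the 2 ends richest in H3K36me3, which covered 28.7% of the chromosome 19 end and 22.7% of the chromosome 11 end in ESCs. Outside the ends, the windows of the same H3K36me3 class had a PiC to ESC ratio of 0.983 (0.945 to 1.02), and these 2 ends together 0.803 (0.609 to 1.06). The other window of this class on chromosome 19, starting 40 Mb from the gap, had 30 ESC and 13 PiC islands, with 2.09% and 0.64% covered. Elsewhere windows of the class went either way, such as 128 and 30 on chromosome 15 (from 95 Mb) and 45 and 53 on chromosome 11 (from 70 Mb).

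**Figure D3:**
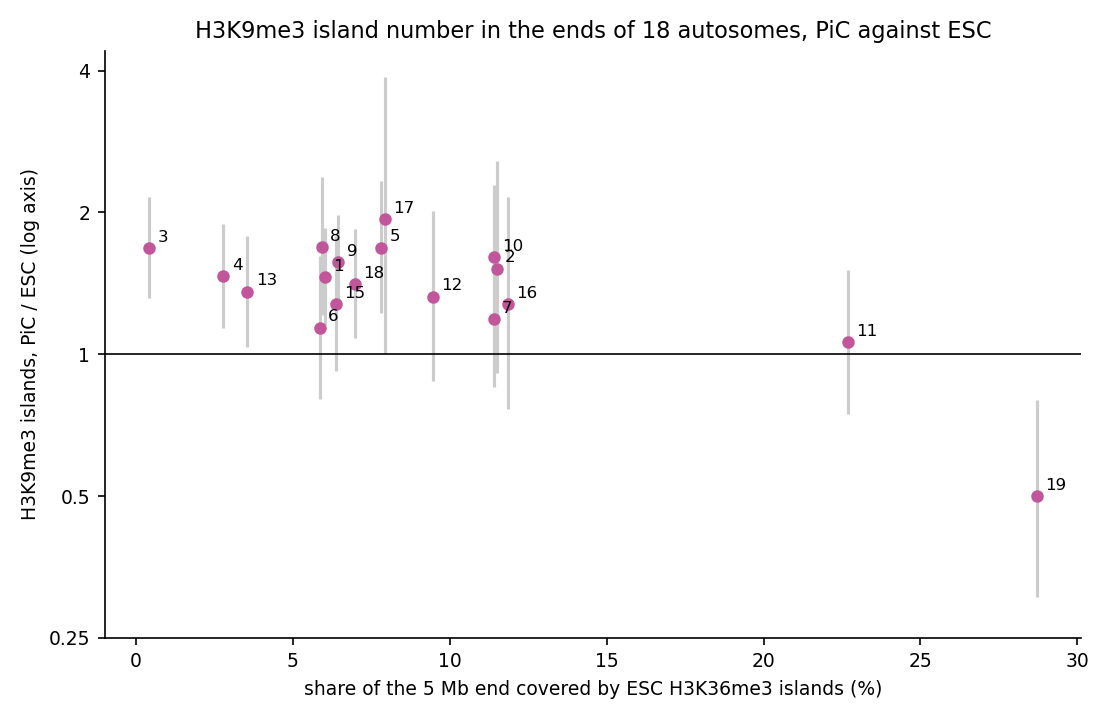
Ratio of H3K9me3 island number in PiCs to that in ESCs (y axis, log scale, bars are exact 95% binomial intervals) in the ends of 18 autosomes, against the share of the end covered by ESC H3K36me3 islands (x axis, percent); numbers name the autosomes, and chromosome 14 with 1 island per condition is left out. Chromosome 19, at 28.7% coverage, is the only point below 1, at 0.5.

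H3K9me3 islands of ESCs were found again in PiCs more often in the ends than elsewhere. An overlap of 1 bp or more counted as shared. Of the ESC members 148 had no PiC counterpart, or 11.6%, where 21.1% of all autosomal ESC H3K9me3 islands had none. The shared portion was 88.4% in the ends (interval 86.5 to 90.1) and 78.2% (77.5 to 78.8) in the rest. Of the PiC members 730, or 40.9%, had no ESC counterpart, against 45% of all autosomal PiC islands. Here the shared portion was 59.1% (56.8 to 61.4) in the ends and 54.7% (54.1 to 55.4) in the rest. PiC islands covered 84.8% of the bases under ESC islands in the ends and 69.9% in the rest. PiC islands also covered more of the ends, as given above, and the part of that coverage in the higher overlap was not tested.

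The 148 ESC-only H3K9me3 members were gathered on chromosomes 11 and 19. These 2 ends held 62 of them (41.9%) but 60 of the 1129 shared members (5.31%). On chromosome 19 alone 34 of the 56 ESC members had no PiC counterpart. The ESC-only members of the 2 ends were poor in tags, with a median of 15 per kb against 26.5 for the shared members there. ESC-only islands were poorer in tags elsewhere too, with medians of 18.9 against 27.3 over all ends and 17.2 against 27.4 in the rest. Of the 62 ESC-only members of the 2 ends, 22 touched an ESC H3K36me3 island, and of the 60 shared ones 1 did. Across all autosomes, contact with H3K36me3 was seen for 21.2% of ESC H3K9me3 islands lacking a PiC counterpart and 4.57% of those having one. These 2 ends were 28.7% (chromosome 19) and 22.7% (chromosome 11) covered by ESC H3K36me3. The part of that coverage in the 22 contacts was not tested. PiC-only members were most numerous on chromosomes 3 (86 of 178 PiC members), 9 (85 of 201) and 1 (72 of 178). These were also the ends with the most PiC H3K9me3 members, and over all ends 40.9% of the PiC members were PiC-only.

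Where 1 ESC island met 1 PiC island, the PiC island was usually the wider. There were 925 such H3K9me3 pairs in the ends. The PiC island was wider in 711 of them, or 76.9%, where 72.4% of all autosomal pairs were wider in PiCs. The median width ratio was 1.43 (interval 1.38 to 1.5) in the ends and 1.33 (1.32 to 1.33) in the rest. The median log2 ratio of unscaled tags per kb, PiC to ESC, was 0.44 (0.40 to 0.47) in the ends and 0.42 (0.41 to 0.43) in the rest, and these intervals overlapped. A PiC island joined 2 or more ESC islands in 90 cases, or 5.04% of the PiC members (4.07 to 6.15), where 2.99% of all autosomal PiC islands did. The opposite, an ESC member that met 2 or more PiC islands, occurred in 27 cases, or 2.11% (1.40 to 3.06), where 1.53% of all autosomal ESC islands did. In the ends PiC islands were wider and ESC islands denser, as given above, and their part in the joining was not tested. The PiC H3K9me3 list also held more tags, and the part of tag yield in the widths was not tested.

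Isolated islands, those over 10 kb from any island of their mark in the opposite condition, were scarcer in the ends. They made up 8.22% of the ESC H3K9me3 members (105 islands), against 17.2% of all autosomal islands, and 23.0% of the PiC members (411 islands), against 32.5%. H3K9me3 islands of both lists were also denser in the ends, as given above, and the part of that density in these lower shares was not tested. The widest isolated PiC member lay on chromosome 7 at 5574401 to 5593800 (19.4 kb, 30.9 tags per kb). It was followed by islands on chromosome 18 at 4717001 to 4730600 (13.6 kb, 24.2 tags per kb) and chromosome 3 at 4418001 to 4429000 (11 kb, 26.1 tags per kb). All 3 were below the member median of 33.8 tags per kb, and none carried H3K36me3. The widest isolated ESC members were narrower and sparser, on chromosome 19 at 6920801 to 6929000 (8.2 kb, 13.3 tags per kb) and 3986401 to 3993200 (6.8 kb, 11 tags per kb) and on chromosome 11 at 5614401 to 5621200 (6.8 kb, 10.9 tags per kb). The chromosome 11 island lay wholly under H3K36me3 in both conditions, and the chromosome 19 islands carried none.

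H3K36me3 in the ends also ranged widely between autosomes, in another order than H3K9me3. Chromosome 19 had the most members, 92 in ESCs and 118 in PiCs, and chromosome 11 came next with 62 and 90. These 2 ends held 32.2% of all ESC and 29.0% of all PiC H3K36me3 members. At the other extreme, chromosome 3 had 2 and 8 and chromosome 14 none. Members were more numerous in PiCs on all 18 autosomes that had any, from a ratio of 1.14 on chromosome 5 to 4 on chromosome 3, the latter with an interval of 0.798 to 38.7. In sum the ratio was 1.499 (interval 1.33 to 1.69) in the ends and 1.36 (1.33 to 1.39) in the rest. Covered length was close, 8.35 Mb for ESCs and 8.81 Mb for PiCs, and larger in PiCs on 10 of the 19 autosomes. The summed tags of the PiC members were 0.654 times those of the ESC members, against 0.606 in the rest, and the part of tag yield in the larger number of islands was not tested.

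The H3K36me3 members with the longest reach were common to both conditions. On chromosome 10 an ESC island of 135 kb at 6223801 to 6358800 lay inside a PiC island of 169.8 kb at 6189001 to 6358800, with 98.1 and 65.0 tags per kb. That PiC island met 2 further ESC islands. On chromosome 2 an ESC island of 103.2 kb at 5876401 to 5979600 met 7 PiC islands that covered 78.5% of it. On chromosome 19 an ESC island of 97.6 kb at 3452601 to 3550200, which held the most tags of the ESC H3K36me3 members (13665), had 97.3% of its length under 3 PiC islands. The next by tags was on chromosome 13 at 6548801 to 6605200 with 237 tags per kb, where PiC islands covered 96.8%. Directly beside the H3K9me3 island of chromosome 11, an H3K36me3 island began at 3104201 in both lists and ended at 3165200 in ESCs and 3165400 in PiCs, with 216 and 120 tags per kb. In PiCs the widest members after that of chromosome 10 were on chromosome 19 at 3451601 to 3531400 and 3583001 to 3660800, and the island with the third highest tag sum was on chromosome 12 at 3428201 to 3504800 (87.6 tags per kb).

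ESC H3K36me3 members were split in PiCs about as often as elsewhere. Of these members 83 met 2 or more PiC islands, or 17.3% (interval 14.04 to 21.0), where 17.5% of all autosomal ESC islands did. Of the PiC members 26 met 2 or more ESC islands, or 3.62% (2.38 to 5.26), where 4.63% of all autosomal PiC islands did. In the 326 pairs of 1 ESC and 1 PiC island the median width ratio was 1, and the PiC island was wider in 144 of them, or 44.2%, where 43.5% of all autosomal pairs were. The portion shared with PiCs was 93.9% (91.4 to 95.9) in the ends and 89.8% (89.2 to 90.3) in the rest, and 29 members were found in ESCs only (6.05%, against 10% of all autosomal islands). Counted from PiCs the shared portion was lower in the ends, 74.8% (71.4 to 77.9) against 79.9% (79.2 to 80.5), and 181 members were found in PiCs only (25.2%, against 20.4%). Isolated islands were 16 in ESCs (3.34%, against 6.36% of all autosomal islands) and 114 in PiCs (15.9%, against 12.8%). Of the isolated PiC members the widest ran over 24.6 kb of chromosome 2, from 4955801 to 4980400, with 35.0 tags per kb. One of 17 kb with 41.4 tags per kb lay on chromosome 9 from 3553401 to 3570400, and 20% of it was under ESC and 62.4% under PiC H3K9me3. One of 16.4 kb with 40.4 tags per kb lay on chromosome 12 from 3290801 to 3307200. The widest isolated ESC members were those of chromosome 18 from 5758601 to 5776600 with 36.9 tags per kb, chromosome 2 from 5104401 to 5119200 with 39.5 and chromosome 7 from 6596401 to 6610800 with 50.2. Apart from the chromosome 9 island, none of these 6 carried H3K9me3 in either condition. The H3K36me3 members nearest to the gap lay on chromosome 17, from 3069801 to 3079600 in ESCs and from 3073201 to 3082600 in PiCs. H3K9me3 of the same condition covered 51.0% of the first and 29.8% of the second.

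H3K9me3 members of ESCs touched H3K36me3 less often than ESC H3K9me3 islands elsewhere. In ESCs 55 members did so, 4.31% (interval 3.26 to 5.57), where 8.07% of all autosomal islands did and 8.36% (7.94 to 8.80) of those in the rest. ESC H3K36me3 covered 8.79% of the ends and 9.45% of the rest, and the part of this coverage was not tested. In PiCs 92 members did so, 5.15% (4.17 to 6.28), against 6.34% of all autosomal islands and 6.43% (6.12 to 6.76) of those in the rest. Counted from the other mark, 48 ESC H3K36me3 members touched H3K9me3, or 10.02% (7.48 to 13.1), near the 10.4% of all autosomal islands. In PiCs 91 did, or 12.7% (10.3 to 15.3), where 8.97% of all autosomal islands did and 8.80% (8.36 to 9.26) of those in the rest. Bases of the ends under both marks summed to 0.190 Mb (ESCs) and 0.374 Mb (PiCs). Chromosome 19 gave 17 of the 55 ESC members and 1 of the 92 PiC members, out of its 56 and 28 H3K9me3 members. Chromosome 1 gave 1 and 17, out of its 122 and 178. Split by sharing, 2.21% of the shared ESC members (1.44 to 3.25) touched H3K36me3, against 4.78% (4.41 to 5.16) in the rest and 4.57% of all autosomal shared islands. Of the ESC-only members 20.3% (14.1 to 27.7) did, near the 21.2% of all autosomal ESC-only islands. In PiCs 6.43% of the shared members (5.03 to 8.08) did, against 8.11% of all autosomal shared islands, and 3.29% of the PiC-only members (2.12 to 4.85), against 4.17%.

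The H3K36me3 islands found in PiCs only touched H3K9me3 more often in the ends than elsewhere. Of these 181 members 60 touched a PiC H3K9me3 island, 33.1% (interval 26.3 to 40.5), where 19.9% of all autosomal PiC-only islands did and 19.1% (17.8 to 20.6) of those in the rest. Of the shared PiC H3K36me3 members 5.77% (3.96 to 8.09) did, close to the 6.18% of all autosomal shared islands. In ESCs the shared H3K36me3 members gave 10.7% (7.97 to 13.9), against 11.2% of all autosomal shared islands. None of the 29 ESC-only members touched H3K9me3, which allows a share of up to 11.9% by the exact interval, against 3% of all autosomal ESC-only islands. PiC H3K9me3 covered 8.51% of the ends and 3.59% of the rest, and the part of this coverage in the higher share was not tested. The 60 islands lay on 16 autosomes, had a median width of 4.3 kb, and 51 of them (85%) also touched an ESC H3K9me3 island, against 75.6% of such islands in the rest. On chromosome 1 all 15 PiC-only H3K36me3 members touched H3K9me3, while 33.5% of the 209 PiC-only islands in the rest of that chromosome did. They were 2.4 to 8 kb wide and lay between 4145401 and 7580800. Without chromosome 1 the shares were 27.1% (20.5 to 34.5) in the ends and 18.1% (16.8 to 19.6) in the rest. In the ends of chromosomes 17 and 19, with 23 and 22 PiC-only H3K36me3 members, none touched H3K9me3.

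**Figure D4:**
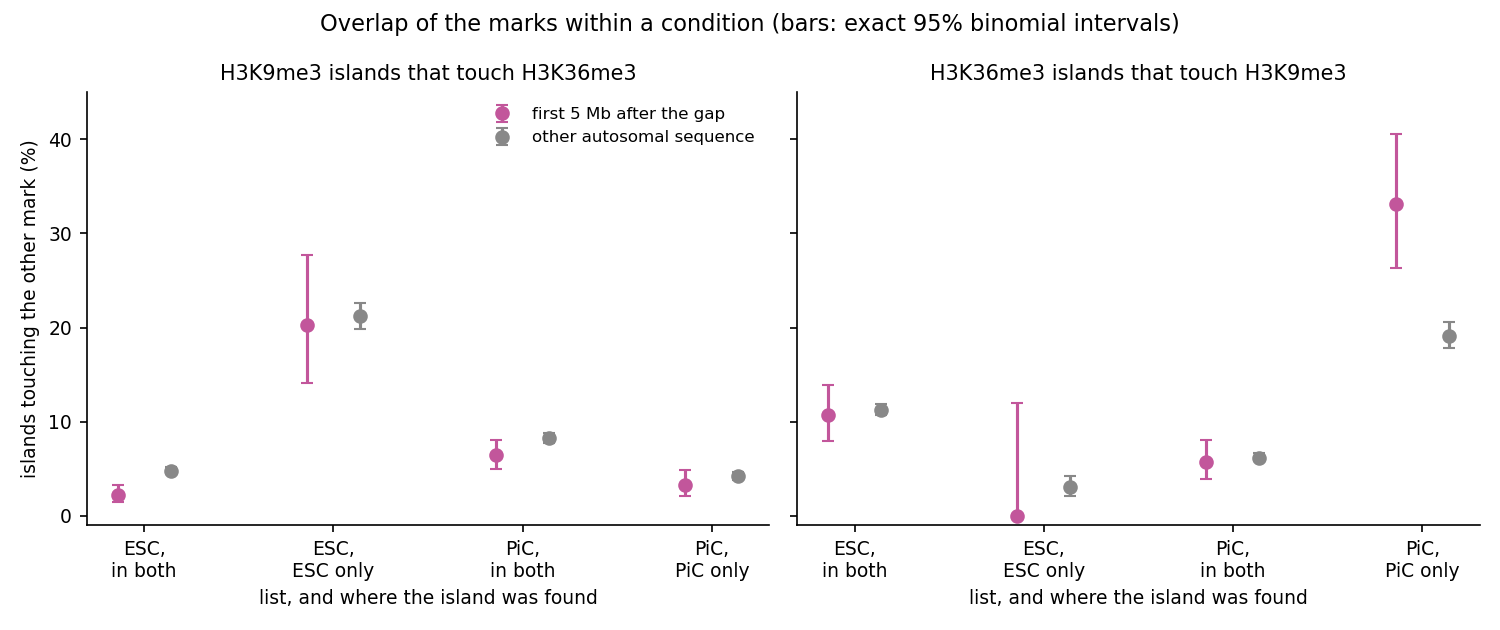
Share of islands that touch an island of the other mark in the same condition (y axis, percent, bars are exact 95% binomial intervals), in the first 5 Mb after the gap (pink) and the other autosomal sequence (grey), for islands found in both conditions or in 1 (x axis). PiC-only H3K36me3 islands stand apart on the right, at 33.1% in the ends and 19.1% elsewhere.

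The values on either side of the border at 8 Mb were as follows. In the last 100 kb inside it the ESC H3K9me3 list had 24 islands with a median of 26.5 tags per kb, and in the first 100 kb outside 32 with a median of 25.6. In PiCs the numbers were 38 and 43, with 35.6 and 32.5 tags per kb. Median widths of H3K9me3 islands inside and outside were 2 and 2.7 kb in ESCs, and 2.6 and 4.4 kb in PiCs. H3K36me3 islands numbered 6 and 4 in ESCs and 7 and 5 in PiCs.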

How the data were processed

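Amplified fragment libraries of sonicated chromatin were sequenced on a SOLiD 4 instrument, per the labels' protocols. Per the submitters' processing notes, SICER was used with build mm9. It joins enriched windows into islands, and 1 list was deposited per library. Its version and thresholds, the aligner, the handling of duplicates and whether the input entered the calls are not given here by any source. The deposited lists have no header. The whole number of each island was read as an unscaled tag count as deposited by the authors. Starts and ends lay on a grid of 200 bp, and positions are printed 1-based. The smallest gap between islands was 800 bp for H3K9me3 and 1200 bp for H3K36me3, so widths are not compared between marks.

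The labels give 5 samples, and the input library was not analysed here. Groups come from the sample titles. Islands were not matched to genes, since the gene table at hand is of another build. Members were assigned by midpoint, and covered length was cut at 3 and 8 Mb. Regions were named by rule: in each list the 3 widest members, the 3 with the most tags, the 3 widest isolated ones, the one nearest the gap and the extreme autosomes. Members and comparisons were chosen with earlier results of these data known. Neither islands nor PCR copies of 1 molecule are independent, so the intervals cover counting error only. With 1 library per group no p-value was computed. Functions were tested on simulated islands with planted density ratios and on subsets of the ESC H3K9me3 islands with planted shares. Overlap was checked against a direct search in the real lists. Python 3.11.15, numpy 2.4.6, pandas 2.3.3 and scipy 1.17.1 were used. Alternatives were other extents of the ends, the better-scored 50% of the islands, equal lists, other overlap rules, the first 200 kb or chromosome 11 left out, and medians over autosomes.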

Additional observations from a re-analysis of the deposited data

How the results depend on the processing

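No paired analysis was possible because all groups consist of 1 library, and no setting could leave out a replicate. Of 97 alternative values 56 stayed within the interval of the main value, and the cause of the others was not tested beyond the settings' own construction. The H3K9me3 excess of the ends in number and covered length stayed above 1 in every setting tried. With ends of 3 to 6 Mb, the ratio of islands per Mb was 2.02 for ESC H3K9me3, 1.16 for ESC and 1.30 for PiC H3K36me3, and that of covered share 1.05 and 1.14 for H3K36me3. With 3 to 13 Mb, the number ratios in the order ESC and PiC H3K9me3, ESC and PiC H3K36me3 were 1.69, 1.78, 0.889 and 0.967, the last changing direction (the ESC H3K36me3 ratio had an interval that included 1), and the covered ratios were 1.78 and 2.11 for H3K9me3 and 0.878 for PiC H3K36me3. As medians over autosomes the number ratios were 1.78 for PiC H3K9me3, 0.743 for ESC H3K36me3 and 0.95 for PiC H3K36me3, the last again on the other side of 1. The covered ratios were then 1.88 for ESC H3K9me3, and 0.724 and 0.769 for H3K36me3. With the 50% of islands that held most tags, the H3K9me3 number ratios were 2.23 and 2.34 and the covered ratios 2.34 and 2.70, and H3K9me3 members touching H3K36me3 were 1.60% in ESCs and 1.66% in PiCs. Summed tags per kb gave 1.24 and 1.17 for H3K9me3. Leaving out single autosomes, added later, gave PiC H3K9me3 number ratios of 1.80 (without chromosome 9) and 2.03 (without 14), and without chromosome 19 0.868 for ESC and 0.988 for PiC H3K36me3. With equal lists the PiC to ESC ratio was 1.08 for H3K9me3 and 1.09 for H3K36me3, and the shared portions 79.5% and 67.4% for H3K9me3 and 85.6% and 85.1% for H3K36me3. With reciprocal overlap they were 53.6%, 38.3%, 75.4% and 50.3%, and within 2 kb the PiC H3K9me3 portion was 63.1%. Leaving out chromosome 11 or the first 200 kb moved no ratio of the ends to the rest in number, covered share or median tags per kb beyond its interval. The ratio of summed tags per kb was not among these. Without the first 200 kb the H3K9me3 members had 27.9 (ESCs) and 36.2 (PiCs) summed tags per kb, against 26.6 and 35.5 in the rest.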

Other observations

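The proximal end of chromosome X, which was left out of the members, lacked the H3K9me3 excess of most autosomes. It was less dense in H3K9me3 islands than the rest of its chromosome, as were the ends of chromosomes 14, 16 and 17 in both conditions. Between 3 and 8 Mb there were 10 ESC and 25 PiC islands of H3K9me3, or 2 and 5 per Mb, against 4.62 and 8.42 per Mb in the rest of the chromosome. H3K36me3 was denser there than in the rest of chromosome X, with 20 islands in ESCs and 29 in PiCs, or 4 and 5.8 per Mb against 1.78 and 2.54.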
